A study of Mus musculus with 30 samples.

Results

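Systemic lipopolysaccharide (LPS) was set against saline in astrocytes taken from mouse brains 1 day after the injection. The comparison rests on 5 LPS and 4 saline arrays, chosen by their titles, out of 30 arrays in the series, and covers 15726 genes. The LPS group received 5 mg/kg LPS of Escherichia coli intraperitoneally, and the saline group received endotoxin-free saline. All mice were young adult males of the line Tg(Aldh1l1-eGFP) OFC789Gsat on a Swiss Webster background, so the controls carry the reporter as well. Brains were dissociated with papain, cells were sorted on green fluorescent protein, and about 20 ng of RNA was amplified in a 2-cycle protocol for an Affymetrix mouse expression array. A separate pair of groups of the same line, 5 arrays after middle cerebral artery occlusion (MCAO, a stroke model) and 4 after sham surgery, was used at the same day for comparison. The arrays of a group are labelled as biological replicates, but the labels do not say that 1 array is 1 mouse. The p-values therefore speak of the spread among arrays, which may be technical. That spread was pooled over all 30 arrays of the series. Median correlations across genes within a group were 0.844 to 0.973 on the LPS and saline arrays. They were 0.981 to 0.993 on the 1-day MCAO and sham arrays and 0.948 to 0.962 on the 3-day MCAO arrays. The SE and p given here may thus understate the spread among the LPS and saline arrays.

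LPS is a cell wall component of Gram-negative bacteria that is sensed by Toll-like receptor 4 with its co-receptor CD14. Given systemically it raises cytokines in blood and brain, and astrocytes respond to such cytokines through the NF-kappaB, STAT and interferon pathways, with higher glial fibrillary acidic protein (GFAP) and altered secretion. Sorting by the Aldh1l1 reporter keeps cells in which the promoter of an astrocytic folate enzyme is active, wherever in the brain they lie. In sorted pools, fewer cells of a type and less RNA per cell cannot be told apart.

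Values are log2 intensities, in which a difference of 1 is 2-fold, and differences are LPS minus saline. Calls were made in limma, for genes with a p below 0.05 after Benjamini-Hochberg adjustment, and "rose", "fell", "higher" and "lower" are used of called genes. The sorted cells expressed astrocyte markers, which does not measure their purity. All 10 astrocyte markers examined lay between log2 9.47 and 14.70 on every one of the 9 arrays, and Gfap alone among them was called. Aldh1l1 itself lay between 11.13 and 13.71 after LPS and between 12.29 and 13.36 after saline, a log2 difference of 0.07 ± 0.31 (SE, adjusted p = 0.939).

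Some arrays stood apart. Median intensity was 94 on LPS replicate 5 and between 69 and 72 on the other 8 arrays. LPS replicate 5 was over 2-fold away from the remaining LPS arrays' mean in 5581 genes (3011 above, 2570 below) and had a median correlation with them across genes of 0.844, against 0.937 to 0.959 for the others. Saline replicate 3 differed from the other saline arrays by over 2-fold in 359 genes, fewer than saline replicates 1 and 2 (1220 and 1823), but 43 genes that rose after LPS were over 2-fold above the rest on it. The sample descriptions also carry a number, 3 to 6 on LPS replicates 1 to 3 and saline replicates 1 and 2, and 13 to 16 on LPS replicates 4 and 5 and saline replicates 3 and 4. The highest intensity was between 31466 and 35553 on the arrays numbered 3 to 6 and between 21568 and 26595 on those numbered 13 to 16. Levels differed between the number ranges in 3856 genes (24.5%). The labels do not call this a batch, and each range holds LPS and saline arrays, so values within each range are given below.

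One day after LPS, members of several groups were higher: 11 of 25 acute phase and iron-handling genes, 9 of 13 interferon-induced GTPases, 10 of 18 genes of MHC class I presentation and 10 of 36 cytoskeletal genes. Fewer genes were lower. Of 15726 genes 489 (3.11%) were called. Of these, 372 (2.37%) were higher, with a median log2 fold of 1.18, and 117 (0.744%) were lower, with a median of -1.03. The counts of each list below are to be read beside these shares over all genes. The median of all genes was 0.07. At least 4-fold changes were seen in 85 of the higher and 2 of the lower genes, and at least 8-fold changes in 30 of the higher and 0 of the lower genes. All 5 LPS arrays lay above all 4 saline arrays in 196 of the higher genes, beside 296 (1.88%) of all genes. They lay below them in 63 of the lower genes, beside 136 (0.865%) of all genes. Changes beyond 2-fold by limma's treat test were found in 26 genes (0.165%), 25 higher and 1 lower, the last being Chrna7.

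The split into higher and lower genes depended on scaling. Higher genes made up 76.1% of the calls as deposited, 65.7% after quantile normalisation and 61.2% after median centring. Without LPS replicate 5, 622 genes (3.96%) were called, 417 of them higher, and without saline replicate 3, 361 (2.3%). Without both arrays 535 (3.4%) were called, 314 of them among the 489. The count was 307 without LPS replicate 1, 990 without LPS replicate 3, 804 without LPS replicate 4 and 225 without saline replicate 4. In each of the 9 fits that left out 1 array 193 genes stayed called, 164 of them higher. On arrays numbered 3 to 6 alone 450 genes (2.86%) were called and on those numbered 13 to 16 alone 774 (4.92%). All 372 higher and all 117 lower genes had the same sign in both ranges, which their choice on these same arrays largely fixes. For the higher genes the median log2 fold was 1.34 in the range 3 to 6 and 1.06 in the range 13 to 16. In each range alone 86 of the 372 higher and 11 of the 117 lower genes were called. The LPS effect itself was called different between the ranges in 0 genes by limma, with 2830 (18.0%) at an unadjusted p under 0.05. With 2 or 3 arrays per group in a range, 0 calls does not show that the ranges agree.

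**Figure D1:**
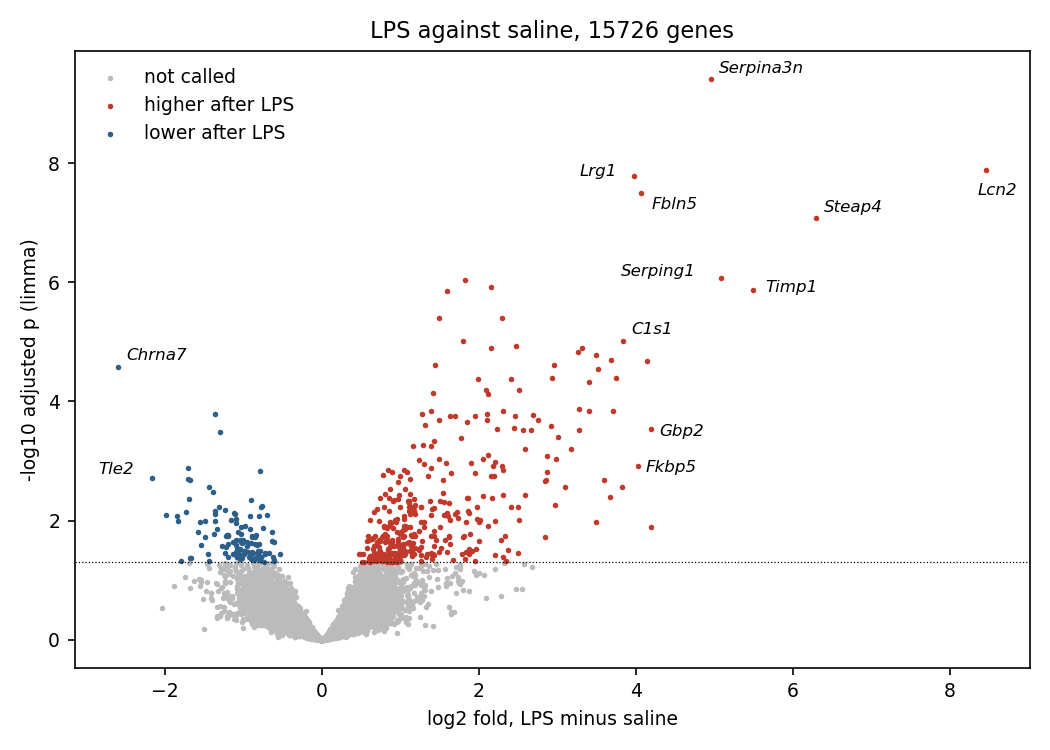
Each point is 1 of 15726 genes, with the log2 fold of LPS minus saline on the x axis and -log10 of the limma adjusted p on the y axis. The dotted line is an adjusted p of 0.05. Red points are the 372 higher and blue points the 117 lower genes, and the higher ones reach further, up to 8.46 for Lcn2 against -2.59 for Chrna7.

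Acute phase and iron-handling genes held the 2 largest changes named here, in Lcn2 and Steap4. Of 25 tested members 11 rose and 0 fell, with a median log2 fold of 0.98 over the list. Lcn2 encodes lipocalin 2, a secreted protein that binds iron-carrying siderophores. Lcn2 measured 14.30, 14.17, 14.36, 13.70 and 13.84 on the 5 LPS arrays, against 4.95, 5.93, 6.60 and 4.95 on the 4 saline arrays. The groups were far apart, the fold was log2 8.46 ± 0.69 (adjusted p = 1.29e-08), and the saline values were near the filter of log2 5, so its size is not exact. Serpina3n, a secreted serine protease inhibitor, measured 14.50, 14.41, 13.53, 13.90 and 13.61 after LPS, against 9.68, 8.52, 9.08 and 8.87 after saline. It had the lowest adjusted p of the comparison (log2 4.95 ± 0.33, adjusted p = 3.86e-10), with LPS arrays within 1 log2 unit of each other. Steap4 encodes a metalloreductase of iron and copper. It measured 12.95, 12.56, 11.75, 10.07 and 8.49 after LPS, against 4.95, 5.46, 4.75 and 4.32 after saline. Its LPS arrays spread widely and those numbered 13 and 15 were lowest, but all were above every saline array (log2 6.29 ± 0.58, adjusted p = 8.35e-08). The fold of Steap4 was 3.74 when all of its probe sets were averaged.

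Other acute phase members rose as well. Cp, which encodes the copper-carrying ferroxidase ceruloplasmin, rose by 4.15 ± 0.54 and the secreted glycoprotein gene Lrg1 by 3.97 ± 0.33, whose saline mean of 4.22 was under the filter. The serum amyloid gene Saa3 rose by 3.41 ± 0.51 and Slc39a14, a transporter of zinc and iron, by 2.46 ± 0.37. Adjusted p ran from 1.68e-08 (Lrg1) to 0.000174 (Slc39a14) among these 4 genes. The list median was 1.46 in the number range 3 to 6, with 12 members called, and 0.60 in the range 13 to 16, with 7 called.

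**Figure D2:**
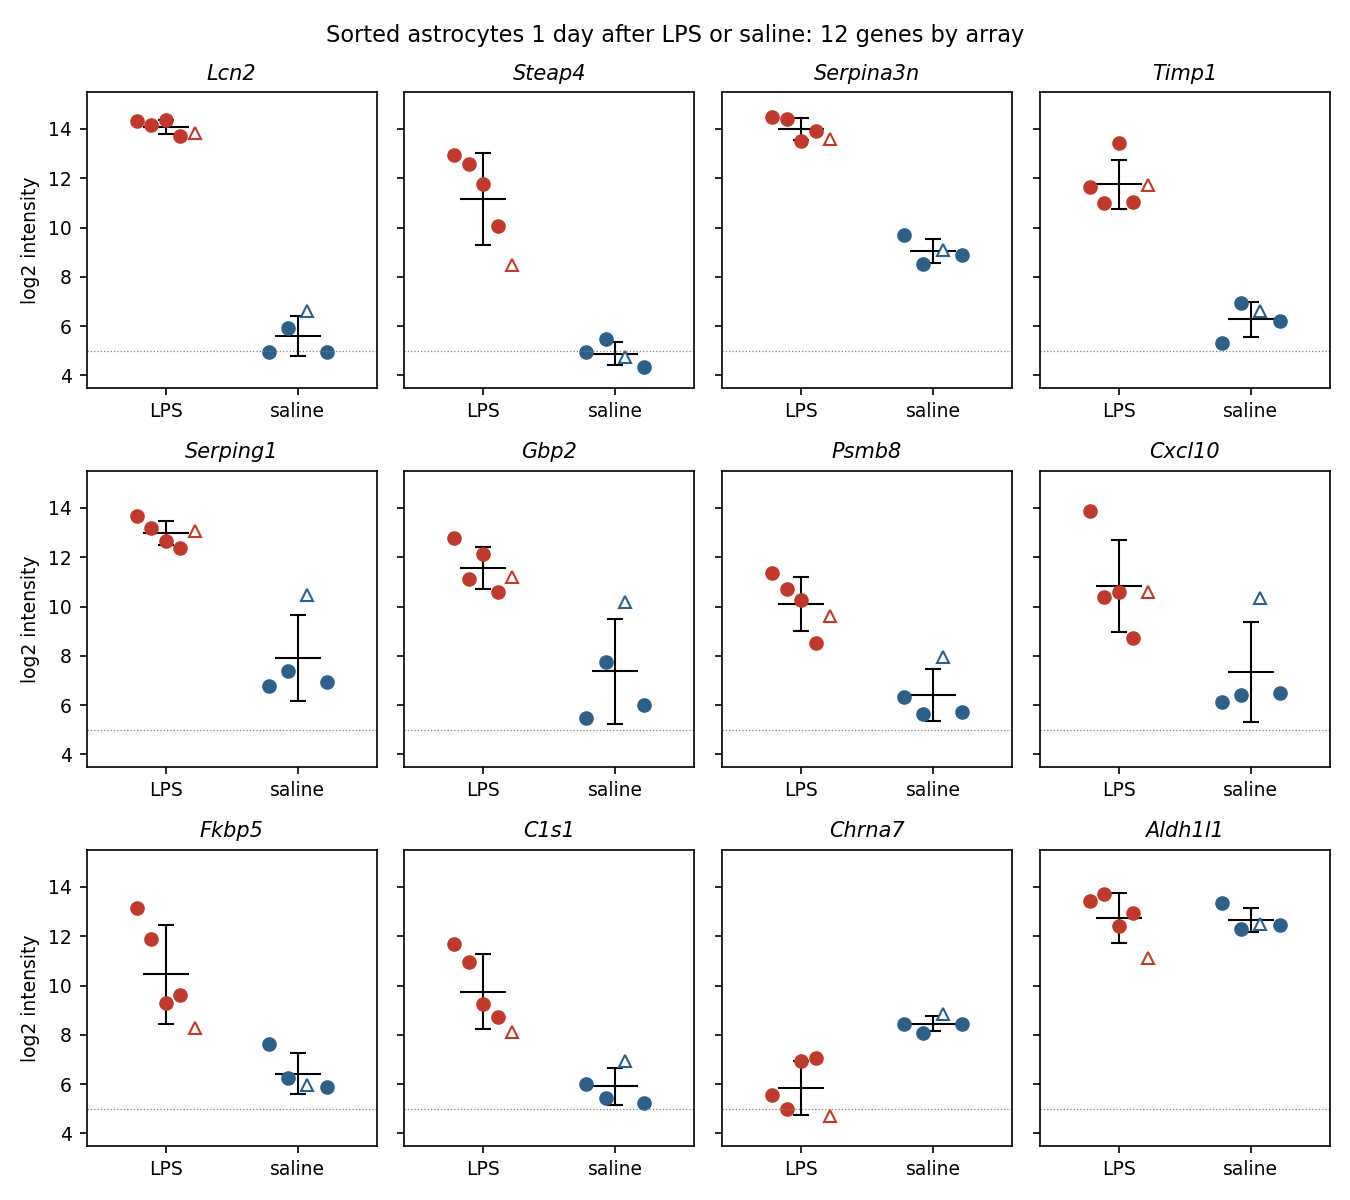
Log2 intensity (y axis) of 12 genes on each array, LPS in red at the left and saline in blue at the right of each panel. Black marks give the mean and SD of 5 LPS and 4 saline arrays, open triangles are LPS replicate 5 and saline replicate 3, and the dotted line is the filter of log2 5. On Gbp2, Psmb8, Cxcl10 and Serping1 the triangle of saline replicate 3 lies above the other saline arrays, and Aldh1l1 overlaps between the groups.

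Interferon-induced GTPases of the guanylate-binding and immunity-related families, which defend cells against intracellular pathogens, rose in 9 of 13 tested members, with 0 lower and a list median of 2.21. Gbp2 measured 12.77, 11.11, 12.12, 10.60 and 11.21 after LPS, against 5.49, 7.76, 10.20 and 6.02 after saline. The groups did not overlap, but saline replicate 3 reached nearly the lowest LPS array (log2 4.19 ± 0.67, adjusted p = 0.000296). Iigp1, an immunity-related GTPase, measured 13.07, 10.87, 9.96, 9.30 and 11.27 after LPS, against 5.25, 4.58, 11.94 and 5.04 after saline. Here saline replicate 3 was above 4 of the 5 LPS arrays (log2 4.19 ± 0.96, adjusted p = 0.0129), and without it and LPS replicate 5 the fold was 5.84 (adjusted p = 6.51e-06). Gbp6 rose by 3.67 ± 0.73 and Gbp3 by 2.31 ± 0.63, and Gbp3 reached 11.76 on saline replicate 3, against 7.96 to 9.43 on the other saline arrays.

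The mean log2 intensity over the 13 GTPases was 11, 9.55, 8.98, 8.65 and 9.22 on the LPS arrays, against 6.64, 6.33, 9.77 and 6.46 on the saline arrays. Saline replicate 3 was thus within the LPS range for the whole list and the 3 other saline arrays were below all of it. Without saline replicate 3, 12 of the 13 rose. In contrast 4 rose without LPS replicate 1, 5 without saline replicate 1, 3 without saline replicate 2 and 3 without saline replicate 4. In the range 3 to 6 the median was 3.41 with 12 called. In the range 13 to 16, where saline replicate 3 is 1 of 2 saline arrays, it was 0.73 with 0 called by limma and no adjusted p under 0.05 for Gbp2 (0.0622), Iigp1 (0.319), Gbp6 (0.125) or Gbp3 (0.795). Iigp1 lost its call without saline replicate 2 or 4 (adjusted p up to 0.0781). Gbp3 lost it without LPS replicate 1 or 2 or saline replicate 1, 2 or 4 (up to 0.177), and after quantile normalisation or median centring.

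Promoters of these genes were searched for short motifs of the transcription factors that act in the pathways named here. RefSeq promoter windows of the build GRCm38.p6, 250 bases before to 50 after the start, were listed for 287 of the 372 higher genes (361 windows) and 93 of the 117 lower genes (135 windows), and for 12562 of all tested genes (15948 windows). The motifs, on either strand, were GAAANNGAAA, the core of the interferon-stimulated response element, TTCNNNGAA, the gamma-activated site bound by STAT proteins, GGGANNNNCC, a kappaB site, and ACANNNTGT, a core of the glucocorticoid response element. Overlapping matches were each counted. GAAANNGAAA was in 9.97% of windows of higher genes, 4.44% of lower and 2.84% of all. TTCNNNGAA was in 11.1%, 1.48% and 6.81%, GGGANNNNCC in 30.5%, 34.1% and 25.9%, and ACANNNTGT in 7.2%, 7.41% and 4.75% of the same sets. All 6 called GTPase genes with a listed window held GAAANNGAAA. So did 9 of 16 called antiviral genes and 3 of 7 called antigen presentation genes. A match is a description of these letters and not a site of binding.

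The windows of 5 genes are shown, with matches in capitals, because they carry the interferon, STAT, kappaB and glucocorticoid letters beside genes described here. Igtp and Irgm1 were chosen after their values were seen.
Gbp2, chr3:142620413-142620712, plus strand: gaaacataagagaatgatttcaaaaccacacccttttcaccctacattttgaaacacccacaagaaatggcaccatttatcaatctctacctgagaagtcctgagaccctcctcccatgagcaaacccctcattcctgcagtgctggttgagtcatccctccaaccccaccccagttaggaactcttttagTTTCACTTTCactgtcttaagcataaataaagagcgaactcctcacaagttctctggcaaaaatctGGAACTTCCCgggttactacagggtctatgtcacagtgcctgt
Igtp, chr11:58199306-58199605, plus strand: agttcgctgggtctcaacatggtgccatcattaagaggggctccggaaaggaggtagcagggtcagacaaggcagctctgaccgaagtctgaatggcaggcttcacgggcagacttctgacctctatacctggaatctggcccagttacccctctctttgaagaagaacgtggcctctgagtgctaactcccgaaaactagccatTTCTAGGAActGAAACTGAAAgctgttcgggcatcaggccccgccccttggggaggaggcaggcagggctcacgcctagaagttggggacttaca
Irgm1, chr11:48871371-48871670, minus strand: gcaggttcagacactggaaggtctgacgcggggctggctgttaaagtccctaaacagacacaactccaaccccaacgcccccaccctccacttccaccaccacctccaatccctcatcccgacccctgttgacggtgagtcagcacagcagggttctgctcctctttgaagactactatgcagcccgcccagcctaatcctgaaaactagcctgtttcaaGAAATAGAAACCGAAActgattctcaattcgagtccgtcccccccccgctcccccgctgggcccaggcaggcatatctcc
Cxcl10, chr5:92348840-92349139, minus strand: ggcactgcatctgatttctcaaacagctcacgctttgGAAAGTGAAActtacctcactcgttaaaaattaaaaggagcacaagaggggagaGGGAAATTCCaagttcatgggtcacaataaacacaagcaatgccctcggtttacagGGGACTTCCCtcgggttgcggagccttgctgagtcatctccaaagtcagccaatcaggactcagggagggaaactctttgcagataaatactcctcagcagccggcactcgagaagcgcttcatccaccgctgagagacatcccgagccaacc
Lcn2, chr2:32387690-32387989, minus strand: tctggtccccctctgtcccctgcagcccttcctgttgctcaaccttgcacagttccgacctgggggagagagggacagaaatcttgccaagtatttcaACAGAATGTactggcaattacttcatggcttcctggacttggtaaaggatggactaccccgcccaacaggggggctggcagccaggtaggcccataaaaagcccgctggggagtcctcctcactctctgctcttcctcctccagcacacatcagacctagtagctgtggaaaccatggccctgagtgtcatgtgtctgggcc

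In Gbp2 the interferon letters began at position -59 from the start and the kappaB letters at 8. In Igtp the gamma-activated letters began at -45 and the interferon letters at -34. In Irgm1, 2 overlapping interferon matches began at -30 and -24. Cxcl10 held the interferon letters at -213 and kappaB letters at -159 and -103, and Lcn2 held the glucocorticoid letters at -152. Igtp rose by 2.003 ± 0.50 (adjusted p = 0.0221) and Irgm1 by 2.31 ± 0.42 (adjusted p = 0.0014). Igtp measured 12.34 on saline replicate 3, against 8.58 to 8.98 on the other saline arrays, and Irgm1 measured 10.72, against 7.70 to 8.46.

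Antiviral interferon-stimulated genes rose in 20 of 50 tested members with 0 lower and a list median of 1.08, and 47 of the 50 folds were positive. Oasl2, of the oligoadenylate synthetase family, measured 11.04, 9.83, 8.73, 9.06 and 8.75 after LPS, against 4.46, 4.46, 9.20 and 4.52 after saline. Saline replicate 3 was above 3 LPS arrays while the other saline arrays were under the filter (log2 3.82 ± 0.74, adjusted p = 0.00277). The ISG15 protease gene Usp18 rose by 2.84 ± 0.69, the membrane protein gene Ifitm3, which restricts virus entry, by 2.84 ± 0.54, and the ADP-ribosyltransferase gene Parp14 by 2.50 ± 0.52. Adjusted p lay between 0.00213 (Ifitm3) and 0.0192 (Usp18), and Usp18 lost its call without LPS replicate 1 or saline replicate 2 or 4 (up to 0.107).

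Of the 50 antiviral genes, 10 rose without LPS replicate 1, 13 without saline replicate 1 or 2, 10 without saline replicate 4 and 29 without saline replicate 3. Without LPS replicate 5 and saline replicate 3 together 32 rose. In the number range 3 to 6 the list median was 1.55 with 28 called, and in the range 13 to 16 it was 0.52 with 1 called.

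Genes of MHC class I presentation, by which cells show peptides to cytotoxic T cells, rose in 10 of 18 tested members with 0 lower and a list median of 1.70. Psmb8, a catalytic subunit of the immunoproteasome, measured 11.35, 10.72, 10.28, 8.53 and 9.63 after LPS, against 6.34, 5.64, 7.94 and 5.73 after saline. The groups did not overlap (log2 3.69 ± 0.47, adjusted p = 2.03e-05), and the fold was 2.23 with all probe sets averaged. Psmb9, its partner subunit, rose by 3.01 ± 0.49 and Tapbp, the peptide-loading protein tapasin, by 2.45 ± 0.39. B2m, the light chain of class I molecules, rose by 2.20 ± 0.41, with 12.32 on saline replicate 3, against 9.36 to 10.44 on the other saline arrays. Adjusted p lay between 0.000281 and 0.00177 for these 3 genes. The count ran from 9 to 13 when 1 array was left out. The list median was 2.37 in the range 3 to 6, with 13 called, and 1.16 in the range 13 to 16, with 6 called.

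Complement members changed in a narrow set. Of 19 tested 5 rose and 0 fell, while the list median of 0.21 was near that of all genes. Serping1, which encodes the inhibitor of the C1 proteases, measured 13.66, 13.19, 12.67, 12.36 and 13.08 after LPS, against 6.78, 7.40, 10.48 and 6.95 after saline. It rose by log2 5.09 ± 0.52 (adjusted p = 8.48e-07), although saline replicate 3 was over 3 log2 units above the other saline arrays. The C1 protease gene C1s1 measured 11.69, 10.95, 9.26, 8.72 and 8.11 after LPS, against 6.02, 5.43, 6.92 and 5.25 after saline (log2 3.84 ± 0.47, adjusted p = 9.59e-06). C1ra, its partner protease and neighbour on chromosome 6, rose by 3.32 ± 0.41 without overlap. Cfi, a protease that inactivates C3b, rose by 1.63 ± 0.41 but lost its call without LPS replicate 1 or 2 or saline replicate 1, 2 or 4 (adjusted p up to 0.0711) and under both other scalings. The C1q genes C1qa, C1qb and C1qc, which microglia express in brain, had folds of 0.54, 0.21 and 0.36 and were not called. The list median was 0.37 in the range 3 to 6 and 0.36 in the range 13 to 16.

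Signalling genes that sense bacteria and cytokines rose in part. Of 39 Toll-like receptor and NF-kappaB genes 8 rose and 0 fell (list median 0.37), and 13 did without LPS replicate 3. Icam1, the leukocyte adhesion molecule, measured 11.90, 8.32, 8.76, 7.97 and 8.95 after LPS, against 5.04, 4.95, 6.97 and 5.39 after saline, with LPS replicate 1 far above the rest (log2 3.59 ± 0.67, adjusted p = 0.00207). The receptor gene Tlr2 measured 12.36, 8.60, 7.71, 7.51 and 7.60 after LPS, against 5.39, 5.29, 6.09 and 5.86 after saline. LPS replicate 1 was again far above the others, and the fold of 3.10 ± 0.60 (adjusted p = 0.00277) was 2.20 without it. Cd14, the LPS co-receptor, rose by 2.59 ± 0.51 and the interleukin-1 receptor gene Il1r1 by 2.12 ± 0.36, both without overlap. Tlr4, the LPS receptor, had a fold of 0.85 and was not called, and Nfkbia, the inhibitor that NF-kappaB induces early, had 0.07. The list median was 0.89 in the range 3 to 6 and 0.25 in the range 13 to 16.

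Of 27 genes of the interleukin-6 family and STAT3, 4 rose and 0 fell, beside 2.37% and 0.744% of all genes. The list median was 0.55 (0.47 in the range 3 to 6, 0.40 in the range 13 to 16). Osmr, the receptor of oncostatin M, measured 13.26, 11.64, 12.20, 11.24 and 9.26 after LPS, against 7.96, 8.68, 9.58 and 7.95 after saline. Only LPS replicate 5 reached into the saline range (log2 2.98 ± 0.62, adjusted p = 0.00555). The NF-kappaB cofactor gene Bcl3 rose by 2.93 ± 0.40 and the transcription factor gene Cebpd by 1.98 ± 0.44, both without overlap. Il13ra1, a receptor chain of interleukin 13, rose by 2.33 ± 0.56 but lost its call without LPS replicate 1 or saline replicate 2 or 4 (adjusted p up to 0.0718). Without LPS replicate 4, 7 members rose. Stat3 had a fold of 1.59, Socs3 of 0.76 and Il6 of 1.11, and none of these 3 was called. Il6 was under the filter on all 4 saline arrays (at most 4.32) and on 3 of 5 LPS arrays, and measured 7.32 on LPS replicate 3.

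Chemokines and cytokines rose in 4 of 33 tested members (list median 0.37), beside 2.37% of all genes, and in 2 without saline replicate 4. Cxcl10, an interferon-induced chemokine for T cells, measured 13.89, 10.39, 10.60, 8.72 and 10.58 after LPS, against 6.11, 6.43, 10.36 and 6.48 after saline. Saline replicate 3 lay above the lowest LPS array (log2 3.49 ± 0.78, adjusted p = 0.0104), and the call was lost without saline replicate 4 (adjusted p = 0.0567). Cxcl1, a neutrophil chemokine, measured 12.20, 10.23, 11.74, 9.64 and 11.54 after LPS, against 7.42, 9.54, 8.99 and 9.08 after saline, without overlap (log2 2.31 ± 0.46, adjusted p = 0.00372). The T cell chemokine gene Ccl5 rose by 1.12 ± 0.24. The colony-stimulating factor gene Csf1 rose by 0.71 ± 0.19 but lost its call without LPS replicate 1 or 2 or saline replicate 1, 3 or 4 (up to 0.153), after median centring and with all probe sets averaged. The list median was 0.29 in the range 3 to 6 and 0.43 in the range 13 to 16.

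**Figure D3:**
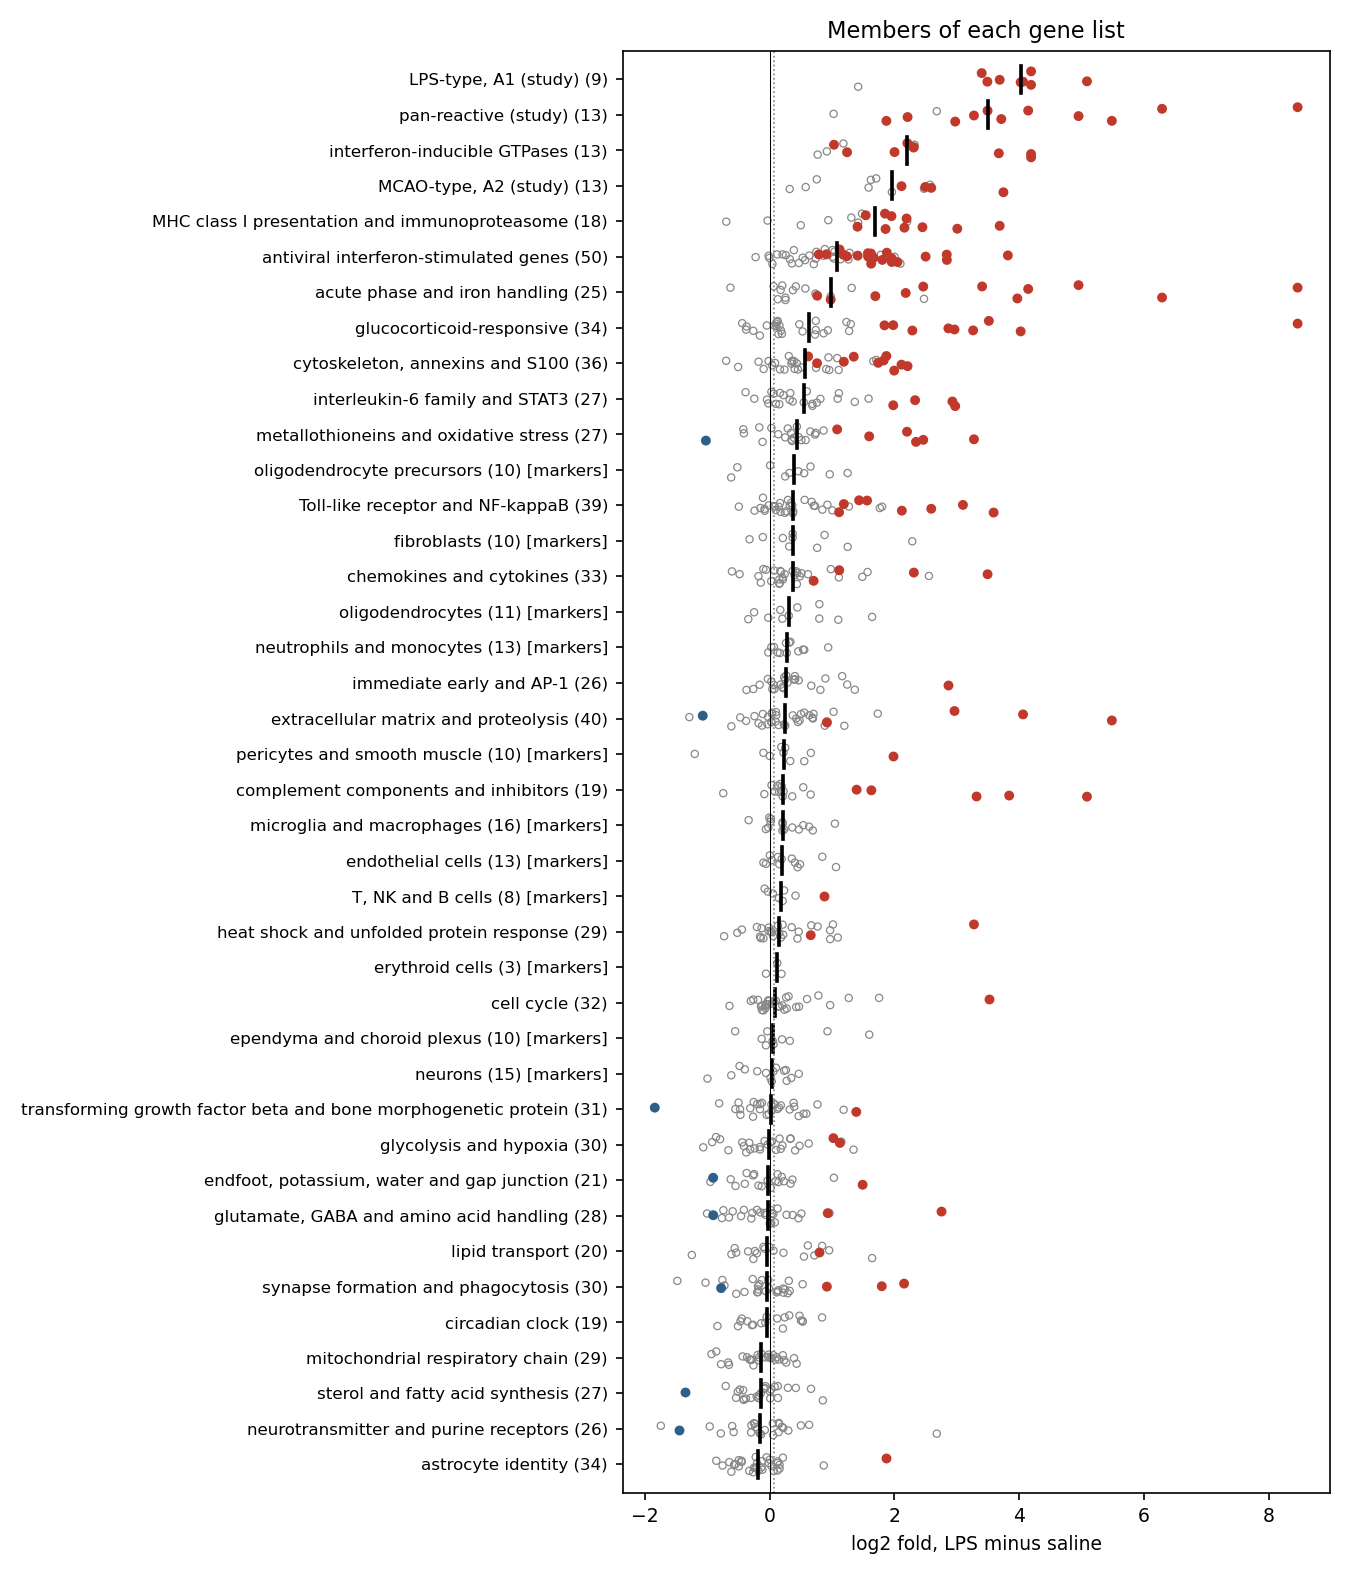
Log2 fold of LPS minus saline (x axis) for the tested members of each of 40 lists (rows, with the number tested), ordered by the median, which is the black bar. Filled red members were higher, filled blue lower, and open grey were not called, and the dotted line is the median of all genes, 0.07. The study's own lists, the GTPases and antigen presentation are at the top, and the medians of 9 of the 11 lists of markers of other cells lie above the dotted line, at 0.12 to 0.39, and those of neurons (0.03) and ependyma (0.06) below it.

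Genes known to respond to glucocorticoids, the stress hormones that rise in blood during systemic inflammation, were higher in 9 of 34 tested members with 0 lower and a list median of 0.63. Fkbp5, a co-chaperone of the glucocorticoid receptor and a target of it, measured 13.16, 11.89, 9.28, 9.62 and 8.29 after LPS, against 7.63, 6.23, 5.95 and 5.88 after saline. All LPS arrays were above all saline arrays but spread over nearly 5 log2 units (log2 4.02 ± 0.72, adjusted p = 0.00119), and the fold was 1.66 with all probe sets averaged. Cdkn1a, the cyclin-dependent kinase inhibitor p21, measured 12.74, 11.52, 10.26, 11.41 and 11.81 after LPS, against 7.58, 8.06, 8.55 and 7.95 after saline, well apart (log2 3.51 ± 0.47, adjusted p = 2.91e-05). Galnt15, an enzyme of protein glycosylation, rose by 3.26 ± 0.41. The list shares Lcn2, its largest change, with the acute phase list, and Tsc22d3, Sgk1 and Per1, other targets of the receptor, had folds of 1.28, 0.87 and 0.53 and were not called. The list median was 0.72 in the range 3 to 6 and 0.50 in the range 13 to 16, with 7 called in each.

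Cytoskeletal, annexin and S100 genes rose in 10 of 36 tested members with 0 lower and a list median of 0.56, and 31 folds were positive. Gfap, the intermediate filament that marks reactive astrocytes, measured 13.77, 13.79, 13.68, 13.47 and 11.48 after LPS, against 10.78, 11.26, 12.42 and 11.001 after saline. LPS replicate 5 fell within the saline range and the other 4 LPS arrays were above it. The fold was 1.87 ± 0.40 (adjusted p = 0.00747) and 2.66 without LPS replicate 5 and saline replicate 3. Vim, the intermediate filament vimentin, measured 12.16, 12.41, 13.39, 11.18 and 12.22 after LPS, against 10.21, 10.61, 9.65 and 9.77 after saline, without overlap (log2 2.21 ± 0.49, adjusted p = 0.0101). With all probe sets averaged the adjusted p of Vim was 0.0575. The membrane linker gene Msn rose by 1.997 ± 0.45 and S100a10, a partner of annexin A2, by 2.11 ± 0.48, and their calls were lost without saline replicate 2 (Msn, adjusted p = 0.0689) or saline replicate 4 (S100a10, adjusted p = 0.0751). In each number range alone 3 members were called, with list medians of 0.49 and 0.62 in the ranges 3 to 6 and 13 to 16.

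Extracellular matrix and proteolysis genes rose in 4 and fell in 1 of 40 tested members, beside 2.37% and 0.744% of all genes. The list median was 0.24, and 0.08 and 0.27 in the ranges 3 to 6 and 13 to 16. Timp1, a secreted inhibitor of matrix metalloproteinases, measured 11.63, 10.99, 13.42, 11.04 and 11.71 after LPS, against 5.32, 6.95, 6.61 and 6.19 after saline. The groups were at least 4 log2 units apart (log2 5.49 ± 0.59, adjusted p = 1.37e-06). Fbln5, an elastic fibre protein, was tight in both groups, with 11.33, 10.87, 11.11, 10.89 and 10.63 after LPS, against 6.81, 6.99, 6.51 and 7.31 after saline (log2 4.06 ± 0.35, adjusted p = 3.15e-08). Another probe set of Fbln5 had a fold of 0.11. The crosslinking enzyme gene Tgm2 rose by 2.96 ± 0.39. Sparc rose by 0.92 ± 0.26 at an adjusted p of 0.0493 and lost its call without any 1 of 7 arrays (all but LPS replicates 3 and 4) and under both other scalings. Timp3, another metalloproteinase inhibitor, fell by 1.07 on the log2 scale (SE 0.25) and lost its call without saline replicate 3 or 4 and with all probe sets averaged. With either of those arrays left out 3 members were called.

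Oxidative stress genes rose in 6 and fell in 1 of 27 tested members, beside 2.37% and 0.744% of all genes. The list median was 0.44, and 0.45 and 0.41 in the ranges 3 to 6 and 13 to 16. The small heat shock protein gene Hspb1 measured 11.04, 10.42, 12.13, 9.16 and 10.36 after LPS, against 6.79, 8.05, 7.33 and 7.21 after saline, without overlap (log2 3.28 ± 0.52, adjusted p = 0.000302). Gpx3, a secreted glutathione peroxidase, rose by 2.20 ± 0.39. Gsr, glutathione reductase, rose by 2.35 ± 0.66 at an adjusted p of 0.0476 but lost its call in 6 of 9 fits that left out 1 array (all but LPS replicates 3 and 4 and saline replicate 1) and under both other scalings. The zinc exporter gene Slc30a1 fell by 1.02 on the log2 scale (SE 0.23), a call lost without saline replicate 2 (adjusted p = 0.0592). The metallothionein genes Mt1 and Mt2 had folds of 0.74 and 0.73 and were not called.

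Lists that the study drew from these same arrays give no independent evidence of direction. Of 13 pan-reactive genes 11 rose (list median 3.49), of 9 tested LPS-type (A1) genes 8 rose (median 4.02), and of 13 MCAO-type (A2) genes 4 rose (median 1.96), with 0 lower in each. Among A1 genes not described above, Amigo2, an adhesion protein, measured 13.38, 12.38, 10.78, 10.90 and 10.32 after LPS, against 9.23, 7.64, 8.21 and 7.53 after saline (log2 3.40 ± 0.47, adjusted p = 4.75e-05). Its other probe set had a fold of 0.20. Srgn, the proteoglycan core serglycin, rose by 3.49 ± 0.44 and H2-D1, an MHC class I heavy chain, had 1.42 and was not called. Of the A2 genes Cd109, a membrane-anchored protein that binds transforming growth factor beta, rose by 3.75 ± 0.51 without overlap, and Tgm1, another crosslinking enzyme, rose by 2.50 ± 0.66. The call of Tgm1 was lost without any 1 of 6 arrays (LPS replicates 1 and 2 and each saline array) and after median centring, and 2 of the 13 rose without saline replicate 4. The pan-reactive gene Aspg, an asparaginase, rose by 3.71 ± 0.55. S1pr3, a sphingosine phosphate receptor of the pan-reactive list, had 2.68 and was not called (adjusted p = 0.059).

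Fewer genes fell, and by less. Chrna7, the alpha7 subunit of nicotinic acetylcholine receptors, measured 5.55, 5.00, 6.94, 7.08 and 4.70 after LPS, against 8.42, 8.09, 8.85 and 8.43 after saline. All LPS arrays were lower and spread more than the saline arrays (log2 -2.59 ± 0.34, adjusted p = 2.62e-05). Its other probe set had a fold of 0.00 to 2 decimals. Tle2, a corepressor of the Groucho family, measured 7.26, 7.95, 7.31, 7.83 and 7.52 after LPS, against 9.94, 9.91, 9.54 and 9.54 after saline. The 2 groups were tight and apart, with a fold of -2.16 ± 0.40 (adjusted p = 0.00196).

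The other large falls without overlap were of varied kinds. They were the bone morphogenetic protein family ligand Gdf10 (-1.84 ± 0.40), the calcium channel subunit Cacna2d2 (-1.83 ± 0.41), the kinase Sbk1 (-1.79 ± 0.50), the ephrin receptor Epha4 (-1.73 ± 0.37), the actin-binding protein gene Cobll1 (-1.70 ± 0.32), the zinc finger factor Fezf2 (-1.70 ± 0.30), the matrix protein gene Sned1 (-1.68 ± 0.32) and the glycogen-targeting phosphatase subunit Ppp1r3g (-1.68 ± 0.46). LPS replicate 5 was the lowest LPS array for 56 of the 117 lower genes. Without it and saline replicate 3 the fold of Epha4 was -1.14, that of Sbk1 -1.09 and that of Cobll1 -1.53, all 3 still called, whereas Ppp1r3g at -1.31 was not (adjusted p = 0.0912). Sbk1 lost its call without LPS replicate 1 or any saline array (adjusted p up to 0.106), and Ppp1r3g in all but 3 of the 9 fits with 1 array left out (up to 0.121). Both lost it after median centring. Cacna2d2 was not called with all probe sets averaged (-0.53, adjusted p = 0.15). The other probe set of Cobll1 had a fold of 0.04. All 10 kept their sign in both number ranges, which their choice for lack of overlap fixes.

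In 4 lists of mature astrocyte function 7 of 104 tested genes were called (6.73%, beside 3.11% of all genes), 4 higher and 3 lower. Of 34 astrocyte identity genes 1, Gfap, rose, with a list median of -0.19. Of 28 genes of glutamate, GABA and amino acid handling 2 rose and 1 fell (median -0.03), of 21 endfoot, potassium, water and gap junction genes 1 rose and 1 fell (median -0.03), and of 26 transmitter and purine receptor genes 0 rose and 1 fell (median -0.15). The gene with the lowest adjusted p in these lists was Slc14a1, a urea transporter, which measured 11.90, 11.85, 12.11, 11.40 and 11.65 after LPS, against 10.25, 10.07, 10.70 and 10.14 after saline. The groups were tight and did not overlap (log2 1.49 ± 0.17, adjusted p = 4.06e-06). Slc1a5, a neutral amino acid exchanger, measured 11.28, 9.86, 8.53, 8.38 and 8.16 after LPS, against 7.49, 5.88, 6.34 and 6.23 after saline (log2 2.76 ± 0.42, adjusted p = 0.000204), and 1.58 with all probe sets averaged. The glutamate transporter genes Slc1a2 and Slc1a3 had folds of 0.13 and 0.00, and the water channel gene Aqp4 had -0.37, none of them called.

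The other calls in those lists depended on single arrays. Maob, a monoamine oxidase, rose by 0.93 ± 0.25, the glycine transporter gene Slc6a9 fell by 0.90, the dystrophin gene Dmd by 0.91 and the prostaglandin receptor gene Ptger4 by 1.45 on the log2 scale. Maob kept its call in 3 of 9 fits with 1 array left out (without LPS replicates 3 or 4 or saline replicate 1), Slc6a9 in 4 (without LPS replicates 2, 3 or 4 or saline replicate 2), Ptger4 in 3 (without LPS replicates 3 or 4 or saline replicate 1) and Dmd in all but those without LPS replicate 1 or saline replicate 1 or 2. The highest adjusted p in those fits was 0.149 for Maob, 0.137 for Slc6a9, 0.107 for Ptger4 and 0.066 for Dmd. With all probe sets averaged Slc6a9 (-0.33, adjusted p = 0.445) and Dmd (-0.58, adjusted p = 0.121) were not called.

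In 10 lists of metabolism, stress, growth and synapse formation 14 of 268 tested genes were called (5.22%, beside 3.11% of all genes), 11 higher and 3 lower. The mitochondrial respiratory chain (29 tested) and the circadian clock (19) had 0 called by limma, with medians of -0.13 and -0.05, and their largest folds were -0.93 for Cox5a, a subunit of cytochrome oxidase, and 0.84 for the clock factor gene Npas2. In the mitochondrial list 4 were called without LPS replicate 3. Of 27 sterol and fatty acid genes 1 fell, the mevalonate pathway gene Mvd (-1.35 ± 0.29, adjusted p = 0.00765). Its arrays did not overlap, with 8.26 to 9.21 after LPS, against 9.92 to 10.20 after saline, but it was not called with all probe sets averaged. Of 20 lipid transport genes 1 rose, the oxysterol hydroxylase gene Cyp7b1 (0.79 ± 0.18, adjusted p = 0.0128), again without overlap. Of 30 glycolysis and hypoxia genes 2 rose, Hk2, a hexokinase (1.13 ± 0.29), and Bnip3, a mitophagy receptor (1.02 ± 0.28), and 0 did without LPS replicate 1, saline replicate 1 or saline replicate 4.

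Of 29 heat shock and unfolded protein response genes 2 rose, Hspb1 and the co-chaperone gene Dnajb4 (0.66 ± 0.16), and Dnajb4 lost its call without saline replicate 2, 3 or 4 (adjusted p up to 0.0922) and with all probe sets averaged (adjusted p = 0.155). Of 26 immediate early genes 1 rose, the NF-kappaB target Ier3 (2.86 ± 0.54, adjusted p = 0.00211), and of 32 cell cycle genes 1, Cdkn1a. Of 31 transforming growth factor beta and bone morphogenetic protein genes Smad3, a signal transducer, rose (1.39 ± 0.23, adjusted p = 0.000557) and Gdf10 fell. Smad3 was not called with all probe sets averaged. Of 30 synapse and phagocytosis genes 3 rose and 1 fell. Thbs2, a secreted thrombospondin that promotes synapse formation, rose by 2.16 ± 0.40, and Pros1, protein S, a bridge to phagocytic receptors, rose by 1.80 ± 0.22. The engulfment receptor gene Megf10 fell by 0.78 on the log2 scale and lost its call in 6 of 9 fits with 1 array left out (without LPS replicates 1, 2 or 5 or saline replicates 2, 3 or 4, up to 0.13). With 1 array left out the number called ran from 1 to 4 in the heat shock list, from 1 to 3 in the immediate early list and from 2 to 6 in the synapse list.

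Markers of cell types that may accompany sorted astrocytes were on 11 lists. Of their 117 tested genes 2 were called (1.71%, beside 3.11% of all genes), Rgs5 of the pericyte list (1.98 ± 0.41, adjusted p = 0.00602) and Gzmb, a granzyme of the T, NK and B cell list (0.88 ± 0.22, adjusted p = 0.0264). Gzmb was at 5.21 to 6.75 after LPS, against 4.58 to 5.43 after saline, near the filter, and lost its call without saline replicate 1 or 2. The mean over 16 microglia and macrophage markers was 6.07 to 6.38 after LPS, against 5.54 to 6.13 after saline, and over 13 neutrophil and monocyte markers it was 5.59 to 6.59 after LPS, against 5.34 to 5.74 after saline. The neutrophil genes S100a8 and S100a9 were at 7.19 and 7.35 on LPS replicate 3 and between 4.86 and 6.15 on the other LPS arrays. In 13 endothelial markers the mean was 5.70 to 6.41 after LPS, against 5.35 to 5.89 after saline, and in 10 pericyte markers 7.14 to 7.64 after LPS, against 6.74 to 7.43 after saline. The largest medians of the 11 lists were those of oligodendrocyte precursors (0.39), fibroblasts (0.37) and oligodendrocytes (0.31), beside 0.07 for all genes. The mean over 10 oligodendrocyte precursor markers was 7.60 to 8.39 after LPS, against 7.43 to 7.76 after saline. Over 10 fibroblast markers it was 6.25 to 7.71 after LPS, against 5.84 to 7.02 after saline, and over 11 oligodendrocyte markers 6.97 to 9.51 after LPS, against 6.88 to 8.28 after saline. The fibroblast proteoglycan gene Dcn had a log2 fold of 2.29 ± 0.90 and the oligodendrocyte tight junction gene Cldn11 1.64 ± 0.88, and neither was called (adjusted p = 0.185 and 0.363). The part of such cells in the changes described was not tested.

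**Figure D4:**
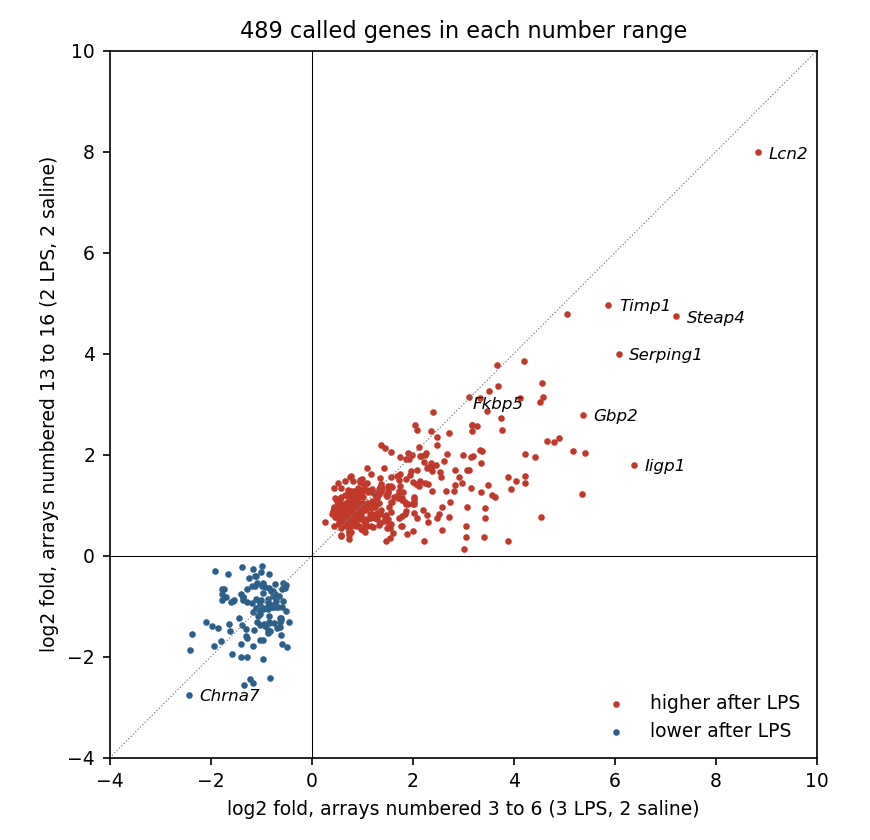
Each point is 1 of the 489 called genes, with its log2 fold of LPS minus saline on arrays numbered 3 to 6 on the x axis (3 LPS, 2 saline) and on arrays numbered 13 to 16 on the y axis (2 LPS, 2 saline). Red genes are higher and blue genes lower in the comparison of all 9 arrays, and the dotted line marks equal folds. No gene has opposite signs in the ranges, which the choice of the genes on these same arrays largely fixes. Interferon-induced genes such as Iigp1 (6.39 and 1.79) and Gbp2 (5.37 and 2.79) lie below the line.

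Levels of the higher genes differed among the 5 LPS arrays. LPS replicate 1 was the highest LPS array in 181 of the 372 higher genes and LPS replicate 4 the lowest in 182. The median log2 level of those 372 genes was 10.04, 9.30, 9.26, 8.85 and 9.42 on the LPS arrays, against 7.77, 7.63, 7.97 and 7.51 on the saline arrays. Every LPS array was thus above every saline array in this summary, which the choice of the genes fixes. Differences between the samples and between the arrays cannot be told apart here. Some higher genes were neighbours on the chromosomes in the RefSeq order of tested coding genes, and whether more were than for other genes was not tested. Examples are Plin4, Plin5 and Lrg1 on chromosome 17, C1ra and C1s1 on chromosome 6, Igtp and Irgm2 on chromosome 11, Gbp7 and Gbp3 on chromosome 3 and Psmb8 and Tap2 on chromosome 17.

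Whether the LPS effect differs from that of a stroke at the same day was tested as the difference between the LPS minus saline and the MCAO minus sham effects, which share no arrays. After MCAO 1021 genes (6.49%) were higher and 970 (6.17%) lower. Of the 372 genes higher after LPS 164 were higher after MCAO too, which is 44.1% of the LPS list and 16.1% of the MCAO list. Of the 117 lower ones 62 were lower after MCAO, 53.0% and 6.39% of the lists, and 7 genes were called in opposite directions. The difference itself was called in 219 genes (1.39%), with the LPS effect above the MCAO effect in 110 and below it in 109. Of the 110, 27 were higher after LPS and 81 were lower after MCAO, and of the 109, 103 were higher after MCAO. Sham replicate 3 lay over 2-fold from the other sham arrays in 581 genes, more than the other sham arrays (61 to 109), and without it 249 differences were called. Without 1 array of the LPS comparison the count ran from 100 (without saline replicate 4) to 472 (without LPS replicate 5), and it was 469 without LPS replicate 3, 396 without saline replicate 1 and 122 without saline replicate 3.

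Genes in which the LPS effect was the higher one included several described above. Endou, an endoribonuclease gene, measured 11.30, 10.75, 9.92, 9.76 and 10.36 after LPS, against 8.59, 7.75, 7.83 and 7.58 after saline, apart on every array. Its log2 fold was 2.48 after LPS and 0.13 after MCAO (difference 2.35 ± 0.43, adjusted p = 0.00367). Fbln5 had 4.06 after LPS and 1.69 after MCAO (difference 2.37 ± 0.50, adjusted p = 0.0146). Slc1a5 had 2.76 and 0.12, Tapbp 2.45 and 0.15 and Amigo2 3.40 and 0.77, with differences of 2.64, 2.30 and 2.63. The differences of these 3 lost their call without saline replicate 2 or 4, Slc1a5 and Amigo2 also without saline replicate 3, Tapbp and Amigo2 also without LPS replicate 2, and Amigo2 without sham replicate 3. The sulfotransferase gene Sult1a1 had 1.84 after LPS and -1.03 after MCAO (difference 2.87 ± 0.58, adjusted p = 0.0106), the phospholipase gene Pla2g3 0.98 and -1.93, and Scel 0.59 and -1.71, and the last 2 genes were called after MCAO and not after LPS. The difference of Pla2g3 was lost without saline replicate 3 or 4, as was the LPS call of Sult1a1.

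None of the 8 genes with the largest called differences of the MCAO effect above the LPS effect was called after LPS. Some genes with smaller called differences were. S100a10 rose by 2.11 after LPS and 5.33 after MCAO (difference -3.21 ± 0.68, adjusted p = 0.0155). Cobll1 fell after LPS and had 0.62 after MCAO (difference -2.32 ± 0.45, adjusted p = 0.00691). Hmox1, haem oxygenase, measured 7.14, 6.51, 6.66, 6.77 and 7.06 after LPS, against 6.04, 6.64, 6.86 and 6.32 after saline, so the groups overlapped. Its fold was 0.36 after LPS and 3.80 after MCAO (difference -3.44 ± 0.39, adjusted p = 3.76e-05). The sphingosine kinase gene Sphk1 had 0.58 after LPS and 5.32 after MCAO, the galectin gene Lgals3 -0.51 and 3.76, the chromatin protein gene Hmga2 0.00 to 2 decimals and 4.21, and the cytokine gene Clcf1 0.32 and 4.22. Chac1, an enzyme that breaks down glutathione, had -0.15 and 3.37. Differences of these 5 genes lay between -4.74 and -3.52, and the highest adjusted p was 0.00815. B3gnt5, a glycolipid enzyme, and Il6 had differences of -3.64 and -3.35 and lost their calls without LPS replicate 2 or saline replicate 2 or 4, B3gnt5 also without LPS replicate 4 or saline replicate 1 and Il6 also without saline replicate 3.

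Genes of several groups are given here with both effects side by side. Lcn2 had a log2 fold of 8.46 after LPS and 7.83 after MCAO, Steap4 6.29 and 5.995, and Timp1 5.49 and 5.26, and none of these differences was called (adjusted p = 0.856 or more). Serpina3n had 4.95 after LPS and 3.18 after MCAO, a difference of 1.77 ± 0.47 that was not called (adjusted p = 0.0581). Serping1 had 5.09 and 2.70, and C1s1 3.84 and 1.78, again without a called difference (adjusted p = 0.108 and 0.122). Fkbp5 had 4.02 and 1.55 (adjusted p = 0.261). Chrna7 fell after LPS and had -0.45 after MCAO, a called difference of -2.14 ± 0.48 (adjusted p = 0.0222).

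**Figure D5:**
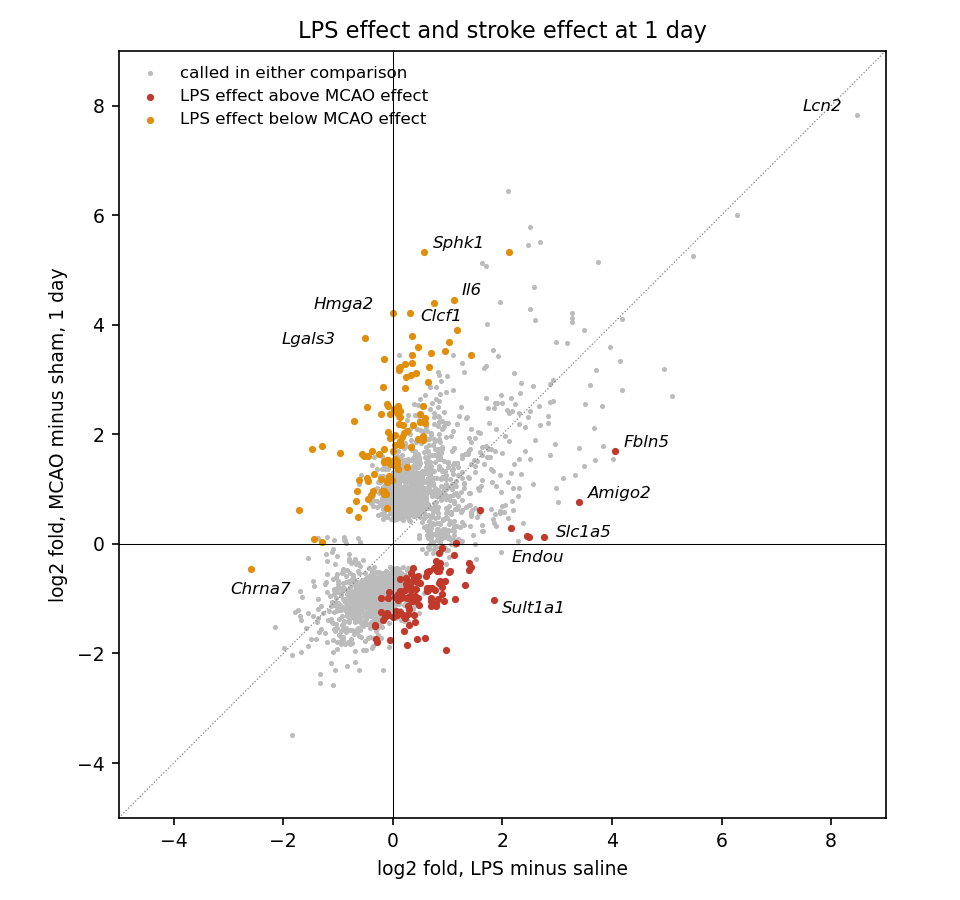
Each point is a gene called after LPS or after MCAO at 1 day or in the difference, with its log2 fold of LPS minus saline on the x axis and of MCAO minus sham on the y axis. Red marks 110 genes with the LPS effect above and orange 109 genes with it below the MCAO effect, grey marks genes without a called difference, and the dotted line marks equal effects. Lcn2 lies near the line in the upper right, and Endou and Slc1a5 lie to the right near an MCAO effect of 0 (0.13 and 0.12).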

How the data were processed

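RNA from sorted astrocytes was hybridised to Affymetrix mouse arrays. Per the submitters' processing notes the authors normalised the arrays by RMA (its version is not given in the sources used here) and deposited linear intensities for 45037 probe sets, whole numbers from 9 to 35553. The log2 values used here were computed from these deposited intensities. Per gene, the probe set with 1 symbol and the highest mean over the 30 arrays was kept (34945 probe sets have 1 symbol, 932 several and 9160 none), and 34741 matched RefSeq. Of 18193 genes, 15726 reached log2 5 (an intensity of 32) on at least 3 of the 30 arrays. A tested gene can therefore lie under log2 5 on all 9 LPS and saline arrays.

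Limma 3.58.1 in R 4.3.3 was fitted to 8 groups and 30 arrays with pooled variance (22 residual and 4.55 prior degrees of freedom). Tests were two-sided, with Benjamini-Hochberg adjustment over 15726 genes. The fit was also run on simulated data with independent values and the same spread per gene on all arrays. That simulation lacks the differences between arrays described here, so it does not show that the calls hold. The number of arrays limits the precision. Summaries used Python 3.11.15 with pandas 2.3.3, and figures matplotlib 3.10.9.

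The members and gene lists were chosen with earlier results of these data known. Genes were named by a rule: among called genes whose groups did not overlap, the 20 that rose and the 10 that fell most, Aldh1l1, Gfap, Vim, Lcn2 and Serpina3n, up to 4 called members that rose and 3 that fell per list (2 by size in lists with fewer than 3 called), and the 8 largest called differences from MCAO each way. Igtp, Irgm1, C1qa, C1qb, C1qc, Tlr4, Nfkbia, Stat3, Socs3, Tsc22d3, Sgk1, Per1, Mt1, Mt2, H2-D1, Slc1a2, Slc1a3 and Aqp4 fall outside it and were chosen after their values were seen. Other scalings, filters, probe set rules and left-out arrays were tried as alternatives.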

Additional observations from a re-analysis of the deposited data

Results flagged for a closer look

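The highest or lowest array of a group was tested against the rest by Dixon's criterion. It was met in 31 of 346 groups tested (8.96%), where chance gives about 1 in 20 for independent groups. These groups share the same 9 arrays, and list means hold some of the named genes. The share therefore does not measure an excess over chance. All values here are log2 levels, or mean log2 levels over a list, except the median intensity.

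Saline replicate 3 was above the other saline arrays 8 times. It measured 10.48 for Serping1, 11.94 for Iigp1, 11.7 for Gbp6, 9.202 for Oasl2 and 10.36 for Cxcl10. Its list means were 9.769 for the interferon-inducible GTPases, 7.923 for the antiviral genes and 9.532 for MHC class I presentation.

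LPS replicate 1 was above the other LPS arrays in Icam1 at 11.9, Tlr2 at 12.36, Galnt15 at 9.976, Slc39a14 at 13.65 and Chac1 at 7.531. Its mean over the Toll-like receptor and NF-kappaB list was 9.22. LPS replicate 5 had a median intensity of 94, and was below the other LPS arrays in Gfap at 11.48, Bnip3 at 10.37, Cox5a at 9.269 and Map2 at 8.655. LPS replicate 3 was below in Tapbp at 11.26 and above in S100a9 at 7.349. LPS replicate 4 was below in the immediate early list at 8.234.

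Saline replicate 1 was above the other saline arrays in Sned1 at 11.25, Map2 at 12.91 and the endfoot list at 11.61, and below in Cacna2d2 at 9.044. Saline replicate 2 was above in Apod at 10.78, Reln at 9.066, Rarres2 at 10.95 and the neuron marker list at 8.01, and below in Scel at 6.267.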

How the results depend on the processing

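The LPS comparison called 489 genes. It called 65 with the 9 arrays fitted alone, 1660 with array weights, 774 on arrays numbered 13 to 16, 197 at an adjusted p under 0.01, 26 by treat against 2-fold, and from 225 to 990 with 1 array left out. The difference from MCAO was called in 219 genes, in 2123 with array weights, 385 with the description number as a term, 1062 on arrays numbered 13 to 16, and from 100 to 472 with 1 array left out. Chosen after seeing the data, quantile normalisation without LPS replicate 5 gave 443 differences and the number term without it 560. The cause was not tested. Fitting 9 arrays alone uses fewer samples to estimate the variance, and it also leaves the other groups out of that estimate. LPS and saline arrays had 179 to 5581 genes over 2-fold from the rest of their group. The 1-day MCAO and sham arrays had 61 to 581, and the 3-day MCAO arrays 767 to 1948. The fit of the 9 arrays alone changed the number of samples and the groups in the estimate together. Their parts in the 65 calls cannot be told apart here. Other scalings, filters and probe set rules kept the LPS count between 415 and 549, but not all of the same genes. Of the 489, from 364 (median centring) to 486 (the filter on 4 of the 9 arrays) were called there too. The number was 375 with probe sets averaged and 377 without shared probe sets. None of the 86 named calls changed direction, and 60 held in all 9 fits with 1 array left out. Of the 86, 34 were called with the 9 arrays alone, where Gfap (adjusted p = 0.253), Gbp2 (0.0589), Iigp1 (0.427) and Tlr2 (0.272) were not, and 41 on arrays numbered 13 to 16. Of all 489, 2 had the opposite sign with probe sets averaged and 4 without shared probe sets. The average includes the probe set used here. Another probe set was present for 253 called genes, and in 205 of them all others had the same sign. Of the 432 other probe sets 375 had the same sign. List medians near 0 were less fixed: without LPS replicate 5 those of glutamate handling (0.03) and endfoot genes (0.12) were above 0.

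With the replicate block 972 genes were called after LPS and 676 differences. LPS and saline arrays of the same replicate number had correlations of deviations of 0.31, -0.32, -0.40 and 0.42. The deviations are from means of few arrays, so these values do not decide whether replicate numbers pair the samples. Not every array correlated best with its own replicate number. Arrays with neighbouring description numbers had 0.68 (LPS replicate 2, saline replicate 1), 0.55 (3 and 2), 0.40 (4 and 3) and 0.28 (5 and 4). The remaining neighbours had 0.10 (5 and 3) and -0.32 (2 and 2). Whether description numbers pair the samples was not tested, and no fit paired by them. Signal near background limits the folds of 16 higher genes whose saline mean was under log2 5.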
